A study of Mus musculus with 6 samples.

Results

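*Myc* and 42 genes of the nucleolus were followed in whole livers 24 hours after CCl4, 43 of the 24346 genes in the table of expression values. The 42 were taken as a list of factors that make and process ribosomal RNA (rRNA), many of them known targets of *Myc*, and all 43 were found in the table by symbol. The livers came from 6 male C57/BL6 mice, 8 weeks old, given 0.6 μl CCl4 per g body weight in sunflower oil by intraperitoneal injection. Of these, 3 were med23f/f controls, which carry floxed *Med23* alleles without Cre. The other 3 were med23Δli mice, which carry the same floxed alleles with *Albumin*-cre. The study describes them as lacking *Med23*, a Mediator subunit, in hepatocytes. Every mouse received CCl4, so no liver here is uninjured.

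MYC is a transcription factor that binds E-box DNA as a dimer with MAX and is induced early after liver injury and at the start of regeneration. In many cell types it raises transcription of the machinery for ribosome production: RNA polymerase I, which makes the rRNA precursor, the small nucleolar ribonucleoproteins (snoRNPs), which modify it, and the factors that cut, fold and export the subunits. Nucleolin (*Ncl*) and nucleophosmin (*Npm1*) are the most abundant proteins of the nucleolus and also act outside it. The question asked of these data was whether the nucleolar genes followed *Myc* between the groups.

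Levels are FPKM, fragments scaled to transcript length and library size, which can be compared between genes. Read counts cannot be had from them, so the depth of each single library is unknown, the study's methods giving a median over samples alone, and error is taken from the 3 mice per group. Each library listed 7628 to 9341 genes at 0, and the 10 most abundant genes held 17.1% to 20.3% of the summed FPKM in control livers and 11.9% to 13.7% in med23Δli livers. *Med23* itself was at 3.42, 2.97 and 4.14 FPKM in the controls and at 3.40, 3.40 and 2.91 FPKM in the med23Δli livers (log2 fold change −0.11 ± 0.17 SE, adjusted p = 0.685 by limma). The part of exons outside the floxed stretch and of transcripts of other liver cells in this value was not tested. The level of *Med23* thus could not serve as a check of the groups, and the livers are named by their labels. Fold changes are differences in log2(FPKM + 0.1), med23Δli minus control, so those of low genes are understated. A gene was called changed at an adjusted p under 0.05 in limma, with Benjamini-Hochberg adjustment over the 11956 genes whose mean reached 0.5 FPKM. All 43 genes passed that filter.

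*Myc* (chromosome 15, 61985391 to 61990374, plus strand, mm10) was at 7.28, 10.2 and 11.6 FPKM in control livers and at 41.7, 35.4 and 42.5 FPKM in med23Δli livers. The lowest med23Δli liver was above the highest control. The mean rose 4.11-fold, from 9.69 ± 2.21 to 39.9 ± 3.89 FPKM (SD, n = 3), with a log2 fold change of 2.05 ± 0.19 (SE; 95% confidence interval 1.61 to 2.49; adjusted p = 0.00131). By exact permutation of the 6 livers the two-sided p was 0.1, the smallest that 3 against 3 allow. Of the 11956 genes tested, 142 including *Myc* had a log2 fold change at least as large. In whole liver, more cells of a type and more RNA per cell cannot be told apart.

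The nucleolar genes as a group did not show this rise. Of the 42, 2 were called higher in med23Δli livers (4.76%), where 11.6% of all genes tested were, and 4 were called lower (9.52%), where 9.48% of all genes tested were. The remaining 36 were not called. At an unadjusted p under 0.05, 4 of the 42 were higher and 7 lower, beside 2449 and 2047 of the 11956 genes tested. Their median log2 fold change was −0.04, beside 0.02 over all genes tested, with 19 of the 42 above 0 and 23 below. The changes ran from −0.65 for *Nop58* to 1.00 for *Ncl*, and 38 of the 42 had group means within 1.5-fold of each other. Among the 36 genes not called, the upper confidence limit of the log2 fold change was highest for *Gnl3* at 0.79, below the lower limit of 1.61 for *Myc*.

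**Figure D1:**
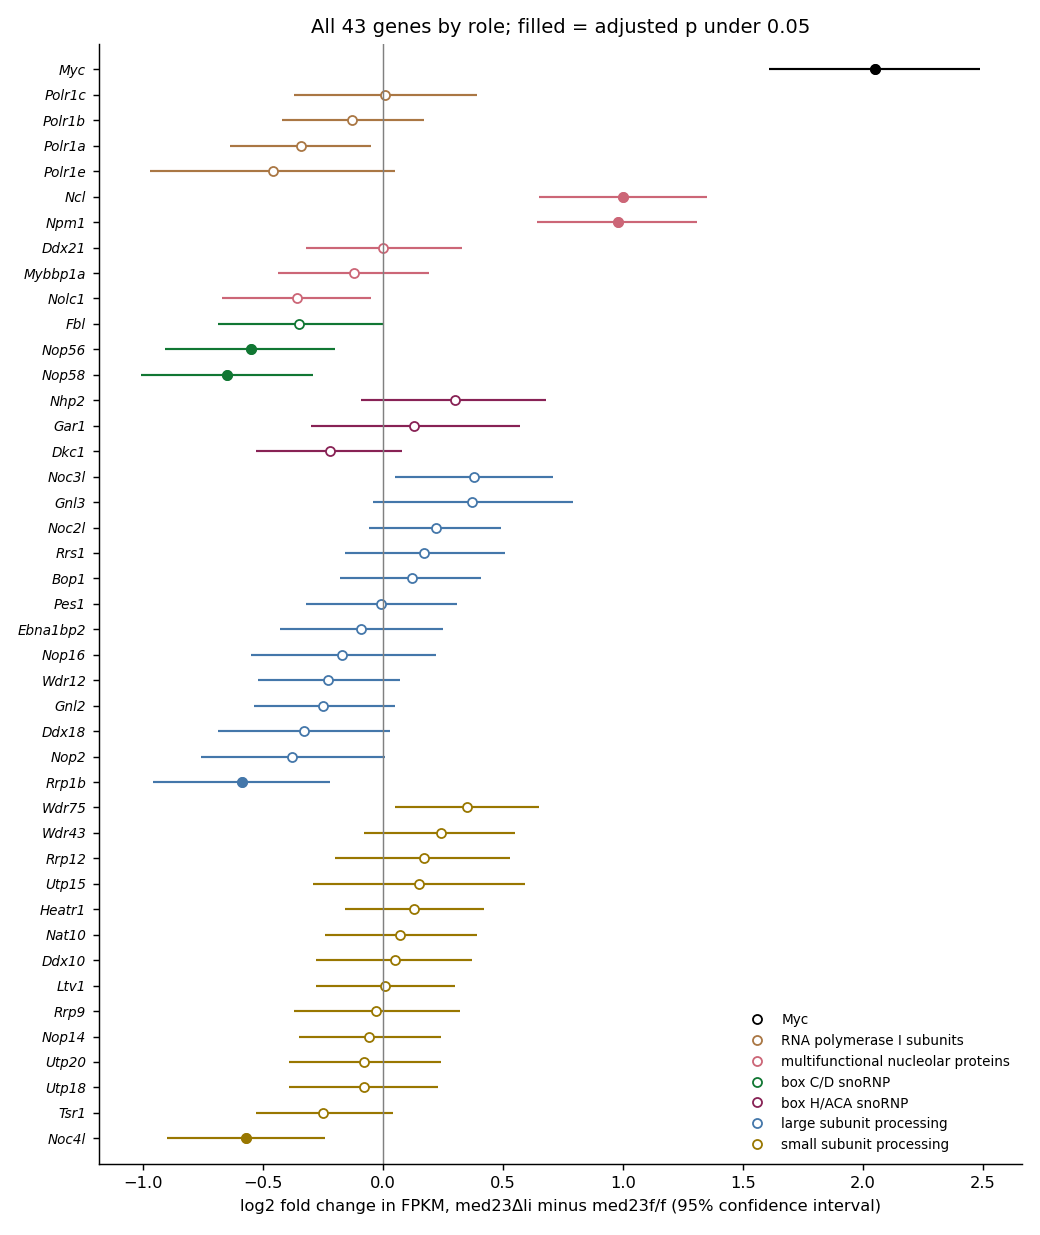
Log2 fold change in FPKM (x axis, med23Δli minus med23f/f) of Myc and the 42 nucleolar genes (y axis), coloured by role, with 95% confidence intervals from 3 livers per group; filled points passed an adjusted p of 0.05. Myc at 2.05 stands apart, Ncl and Npm1 lie near 1, and the other 40 genes lie between −0.65 and 0.38.

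*Ncl*, which binds rRNA precursors and chromatin at the rRNA genes, was at 54.3, 39.9 and 50.9 FPKM in controls and at 101, 96.1 and 91.3 FPKM in med23Δli livers. The groups did not overlap, and the rise was 1.99-fold in the means (log2 fold change 1.00 ± 0.15 SE, adjusted p = 0.00624 by limma). *Npm1*, a chaperone of ribosomal proteins and histones, was the most abundant of the 43 genes, at 254, 231 and 278 FPKM in controls and 502, 556 and 445 FPKM in med23Δli livers. Again every med23Δli liver was above every control, by 1.97-fold in the means (log2 fold change 0.98 ± 0.15 SE, adjusted p = 0.00621). *Npm1* has processed pseudogenes in the mouse genome, and how reads with several matching places were shared out is not given in the sources used here. Their part in its level and in its fold was not tested. The summed FPKM of the 42 was 1240 to 1320 in controls and 1410 to 1600 in med23Δli livers, and without these 2 genes it was 936 to 1050 in controls and 874 to 958 in med23Δli livers.

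The 3 other multifunctional nucleolar proteins were not called. *Ddx21*, an RNA helicase that acts in RNA polymerase I transcription and rRNA processing, was at 26.4, 25.4 and 29.1 FPKM in controls and at 26.5, 30.9 and 24.0 FPKM in med23Δli livers, with overlapping groups and a log2 fold change of 0.00 (95% confidence interval −0.32 to 0.33). *Mybbp1a*, a nucleolar partner of MYB and p53, had a log2 fold change of −0.12. *Nolc1*, a chaperone of snoRNPs, was at 18.5, 21.6 and 22.6 FPKM against 15.6, 17.7 and 15.5 FPKM, lower in every med23Δli liver, but did not pass the test (log2 fold change −0.36 ± 0.14 SE, adjusted p = 0.0937).

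**Figure D2:**
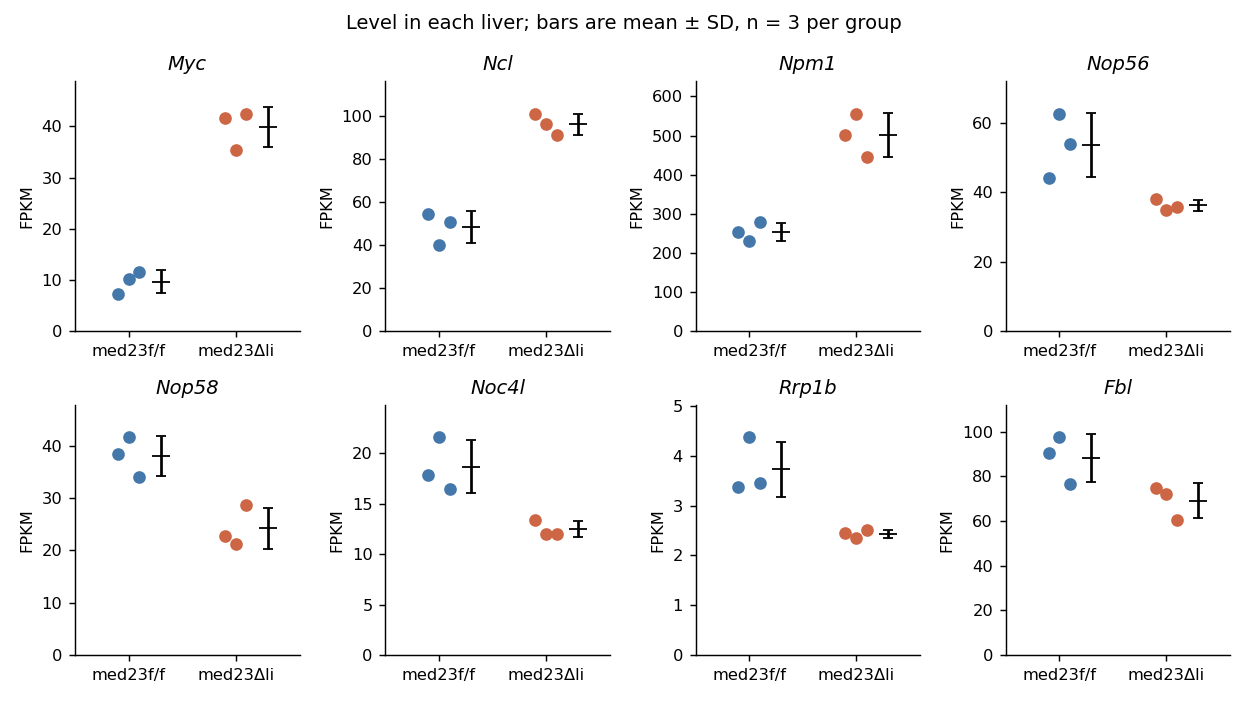
FPKM (y axes, from 0) of Myc, the 6 nucleolar genes that passed the test and Fbl, which did not, in each of the 3 med23f/f and 3 med23Δli livers; black bars are mean ± SD. Myc, Ncl and Npm1 are higher in every med23Δli liver, and the other 5 genes are at lower values in every med23Δli liver.

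The role with the lowest median log2 fold change (−0.55, 3 genes) was that of the box C/D snoRNP proteins, which form the particles that methylate rRNA. *Nop58*, a core protein of that particle, was at 38.4, 41.6 and 34.1 FPKM in controls and at 22.8, 21.2 and 28.7 FPKM in med23Δli livers. Its groups did not overlap, and it fell by 0.65 on the log2 scale (SE 0.16, adjusted p = 0.0254 by limma). *Nop56*, the partner of *Nop58* in the particle, was at 44.3, 62.7 and 54.1 FPKM in controls and at 38.0, 34.8 and 35.9 FPKM in med23Δli livers. It fell by 0.55 (SE 0.15, adjusted p = 0.0401), with no overlap between the groups. *Fbl*, the methyltransferase of the particle, was at 90.2, 97.4 and 76.3 FPKM in controls and at 74.9, 72.0 and 60.4 FPKM in med23Δli livers. It was lower in every med23Δli liver but did not pass the test (log2 fold change −0.35 ± 0.15 SE, adjusted p = 0.133). The box H/ACA proteins, whose particles convert uridine to pseudouridine, were not called by limma, nor did any reach an unadjusted p under 0.05: the log2 fold change was −0.22 for the pseudouridine synthase *Dkc1*, 0.13 for *Gar1* and 0.30 for *Nhp2*.

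Of the 14 small subunit processing genes 1 was called, as lower (7.14%, beside 9.48% of all genes tested). None was called higher, where 11.6% of all genes tested were. *Noc4l*, which works with *Nop14* in the early small subunit precursor, was at 17.9, 21.6 and 16.5 FPKM in controls and at 13.4, 12.0 and 12.0 FPKM in med23Δli livers, and fell by 0.57 (SE 0.14, adjusted p = 0.0288 by limma). The groups did not overlap. Its partner *Nop14* was at 18.0, 19.8 and 16.8 FPKM against 16.6, 18.6 and 17.2 FPKM, with overlapping groups and a log2 fold change of −0.06 (95% confidence interval −0.35 to 0.24). *Wdr75*, a subunit of the complex that joins rRNA transcription to early processing, was at 8.58, 8.70 and 8.40 FPKM in controls and at 10.8, 9.95 and 12.1 FPKM in med23Δli livers, higher in each of them, but did not pass the test (log2 fold change 0.35 ± 0.13 SE, adjusted p = 0.0892). *Wdr43* and *Utp15*, of the same complex, had log2 fold changes of 0.24 and 0.15, and *Heatr1*, also of it, 0.13. The rRNA acetyltransferase *Nat10* (0.07), the helicase *Ddx10* (0.05), the U3 snoRNP protein *Rrp9* (−0.03), *Utp18* (−0.08), *Utp20* (−0.08) and *Rrp12* (0.17) lay near 0. Of the factors that act late, on the cytoplasmic precursor, *Ltv1* had 0.01 and *Tsr1* −0.25.

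Of the 13 large subunit processing genes 1 was called, as lower (7.69%, beside 9.48% of all genes tested). None was called higher, where 11.6% of all genes tested were. *Rrp1b*, a nucleolar protein that also binds chromatin, was at 3.38, 4.37 and 3.45 FPKM in controls and at 2.45, 2.35 and 2.51 FPKM in med23Δli livers. It fell by 0.59 (SE 0.16, adjusted p = 0.0378 by limma), and the groups did not overlap. *Pes1*, *Bop1* and *Wdr12*, which form the PeBoW complex needed for large subunit rRNA maturation, had log2 fold changes of −0.01, 0.12 and −0.23. *Pes1* was at 25.7, 30.9 and 29.4 FPKM in controls and at 29.7, 30.6 and 25.4 FPKM in med23Δli livers, with overlapping groups, and its confidence interval ran from −0.32 to 0.31. *Gnl3* (nucleostemin) was at 29.1, 31.3 and 44.9 FPKM against 44.2, 47.2 and 42.7 FPKM. Its 2 lower controls were below every med23Δli liver and the third control was within their range (log2 fold change 0.37, adjusted p = 0.166). *Noc3l* and *Noc2l* were higher in every med23Δli liver, with log2 fold changes of 0.38 (adjusted p = 0.0939) and 0.22 (adjusted p = 0.225). The rRNA methyltransferase *Nop2* (−0.38), the helicase *Ddx18* (−0.33) and the GTPase *Gnl2* (−0.25) were lower in every med23Δli liver without passing the test. *Rrs1* (0.17), *Ebna1bp2* (−0.09) and *Nop16* (−0.17) had overlapping groups.

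None of the 4 RNA polymerase I subunits was called, beside 11.6% of all genes tested as higher and 9.48% as lower. At an unadjusted p under 0.05 in limma, 1 of them was lower. *Polr1a*, the catalytic subunit, was at 6.09, 6.78 and 6.46 FPKM in controls and at 5.16, 5.17 and 4.83 FPKM in med23Δli livers, below every control (log2 fold change −0.34 ± 0.13 SE, adjusted p = 0.0879 by limma). *Polr1b*, the other large subunit, had a log2 fold change of −0.13, *Polr1c*, shared with RNA polymerase III, 0.01, and *Polr1e* −0.46.

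Counted by overlap alone, 6 of the 42 genes were higher in every med23Δli liver than in any control (14.3%), beside 23.3% of all genes tested, and 13 were lower (31.0%), beside 20.4%. Of these 19 genes, 13 did not pass the test.

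The calls differed in how they held when a library was left out. *Myc*, *Ncl* and *Npm1* stayed called whichever of the 6 libraries was left out, with adjusted p-values from limma of up to 0.0163 for *Myc*, 0.0349 for *Ncl* and 0.034 for *Npm1*. *Nop58* lost its call without control 1 or 2 or med23Δli liver 1 or 2 (adjusted p = 0.0582 to 0.103). *Nop56* kept its call without control 1 (0.0255) and lost it without any other library (0.0574 to 0.132). *Noc4l* kept its call without control 3 (0.0181) and lost it without any other library (0.0536 to 0.106), as did *Rrp1b* (0.0373 without control 3, and 0.0543 to 0.127). All 4 stayed below 0 throughout. Without control 3, *Gnl3* became higher (log2 fold change 0.56, adjusted p = 0.019) and *Polr1e* lower (−0.68, adjusted p = 0.0325). With the more than 2-fold criterion on the log2 fold change added, *Ncl* (at 1.00) was the sole nucleolar gene to pass, beside 4.45% of all genes tested that passed it as higher. *Ncl* passed at the edge, with 0.87 to 1.09 when a library was left out. *Npm1* was at 0.98, so the criterion does not set these 2 genes apart.

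To test whether a gene changed as *Myc* did, the log2 level of *Myc* in the same library was subtracted from that of each gene and the difference was fitted by limma. All 42 nucleolar genes fell against *Myc*, with log2 ratio changes from −2.70 for *Nop58* to −1.05 for *Ncl* and adjusted p-values of at most 0.00332. Of all genes set against *Myc* in this way 96.7% fell, so this difference was not particular to the nucleolar genes. *Ncl* and *Npm1*, the nucleolar genes called higher, rose less than *Myc*: their log2 ratio to *Myc* changed by −1.05 and −1.07.

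Within a group, the order of the livers by *Myc* was not that by the median of the nucleolar genes, though control 1 was lowest in both. Among controls *Myc* was lowest in liver 1 and highest in liver 3, deviating from the group mean by −0.38, 0.10 and 0.28 on the log2 scale in livers 1 to 3, whereas the median deviation of the 42 genes was −0.05, 0.05 and 0.01. In liver 1, the lowest for *Myc*, 15 of the 42 were above their group mean, in liver 2 this was 30 and in liver 3 it was 24. Among med23Δli livers *Myc* deviated by 0.07, −0.17 and 0.10, and the median of the 42 by 0.05, 0.01 and −0.06. Among the med23Δli livers 27, 22 and 13 of the 42 were above their group mean (64.3%, 52.4% and 31.0%), beside 54.1%, 61.7% and 37.2% of all genes tested, so the low count in liver 3, the med23Δli liver with the most *Myc*, was shared by genes in general. In the controls the shares were 35.7%, 71.4% and 57.1%, beside 56.8%, 45.9% and 49.7%. The low share in control 1, the control with the least *Myc*, was thus not shared by genes in general. The median deviations lay between −0.06 and 0.05 and rest on 3 livers per group, so their order decides little. The 6 livers form 2 clusters in *Myc*, so no correlation across them is given.

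**Figure D3:**
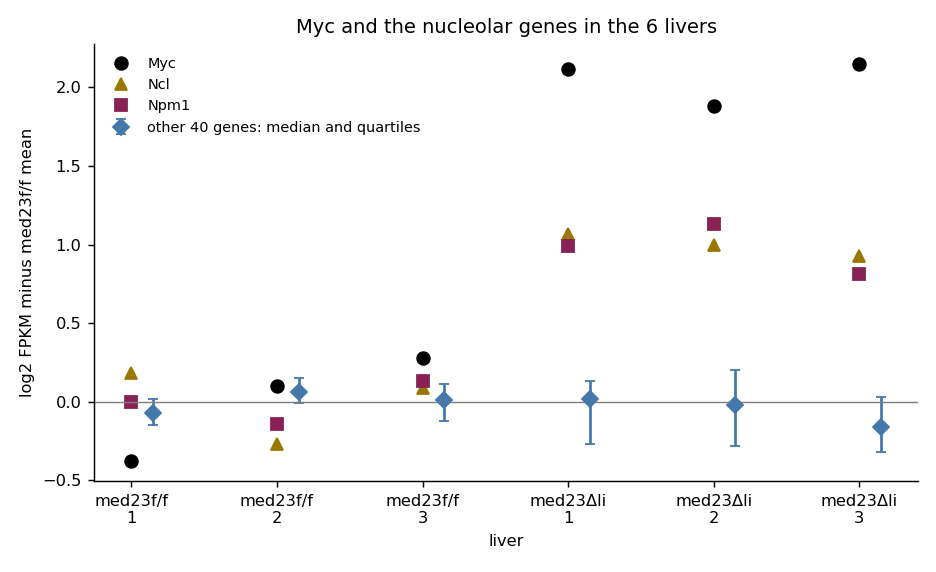
Log2 FPKM minus the mean of the 3 med23f/f livers (y axis) in each liver (x axis) for Myc, Ncl, Npm1 and the other 40 nucleolar genes, the last as their median with quartiles as bars. Myc, Ncl and Npm1 step up in the 3 med23Δli livers, and the median of the 40 lies between −0.16 and 0.06 in all 6.

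The promoters of the genes were searched for E-boxes, since the canonical letters CACGTG and the variant CACGCG or CGCGTG are known to be bound by MYC and MAX. Promoters of 300 bases, from 250 before to 50 after the start of the gene (RefSeq, GRCm38.p6), were given for 36 of the 43 genes and not for *Myc*, *Fbl*, *Npm1*, *Bop1*, *Rrp12*, *Rrs1* and *Gnl2*. CACGTG, which reads the same on both strands, was found in 8 of the 36 (22.2%), beside 8.09% of the 27025 genes in the promoter table and 12.1% of those tested for expression. The 8 were *Nop2*, *Pes1*, *Wdr43*, *Utp20*, *Utp18*, *Mybbp1a*, *Ltv1* and *Tsr1*. None of them was called by limma, where 11.6% of all genes tested were called higher and 9.48% lower. Nor did any reach an unadjusted p under 0.05, as 2449 higher and 2047 lower of the 11956 genes tested did. Their log2 fold changes ran from −0.38 to 0.24 with a median of −0.08, beside −0.04 over the 28 genes without the motif. The variant, whose forms are reverse complements that can overlap each other but not CACGTG, was found in 11 of the 36 (30.6%), beside 10.5% of genes in the table and 19.7% of those tested. Its carriers had a median of 0.00, from −0.46 to 0.30, and none was called by limma (1, *Nolc1*, at an unadjusted p under 0.05). With 8 and 11 carriers, these counts are too small to tell whether an E-box goes with a change. *Ncl*, *Nop56*, *Nop58*, *Noc4l* and *Rrp1b*, the called genes with a promoter in the table, held neither in this window. Of the 19 promoters with neither motif, 14 belong to genes that were not called either. The 4 promoters below were picked as examples after the values were seen: *Pes1* and *Mybbp1a* carry the letters of both motifs and were not called, and *Ncl*, which rose, and *Nop58*, which fell, carry neither. They are written 5′ to 3′ on the strand of the gene, with E-box letters in capitals. In *Pes1* CACGTG begins at base 3 after the start, in *Mybbp1a* at base 41, and the overlapping pair of variants in *Mybbp1a* begins 115 and 111 bases before it.
Pes1, chr11:3963725-3964024, plus strand: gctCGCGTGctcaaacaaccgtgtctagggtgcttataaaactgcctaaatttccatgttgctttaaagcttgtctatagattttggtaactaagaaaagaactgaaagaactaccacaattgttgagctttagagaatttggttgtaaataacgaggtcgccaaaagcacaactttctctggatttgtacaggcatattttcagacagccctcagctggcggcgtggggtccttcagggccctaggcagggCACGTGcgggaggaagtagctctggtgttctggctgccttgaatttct
Mybbp1a, chr11:72441077-72441376, plus strand: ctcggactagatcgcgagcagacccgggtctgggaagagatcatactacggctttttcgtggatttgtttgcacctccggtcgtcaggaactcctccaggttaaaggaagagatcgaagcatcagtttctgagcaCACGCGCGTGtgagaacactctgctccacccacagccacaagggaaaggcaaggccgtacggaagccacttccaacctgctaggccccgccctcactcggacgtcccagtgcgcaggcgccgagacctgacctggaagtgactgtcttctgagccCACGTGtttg
Ncl, chr1:86359406-86359705, minus strand: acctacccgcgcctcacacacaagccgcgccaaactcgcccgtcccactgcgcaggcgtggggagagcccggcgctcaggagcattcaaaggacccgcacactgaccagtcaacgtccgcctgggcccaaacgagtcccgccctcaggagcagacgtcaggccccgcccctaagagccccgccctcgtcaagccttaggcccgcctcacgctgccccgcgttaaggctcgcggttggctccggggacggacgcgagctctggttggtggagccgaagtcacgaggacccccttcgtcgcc
Nop58, chr1:59684756-59685055, plus strand: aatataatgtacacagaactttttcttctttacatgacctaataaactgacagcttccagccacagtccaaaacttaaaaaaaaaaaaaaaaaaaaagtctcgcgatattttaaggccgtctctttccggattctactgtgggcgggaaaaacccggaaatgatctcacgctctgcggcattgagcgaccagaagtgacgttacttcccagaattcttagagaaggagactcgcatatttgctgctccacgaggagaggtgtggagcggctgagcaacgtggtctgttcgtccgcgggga

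A further 113 genes of ribosome production, outside the 42, were examined in 5 lists, and all were tested. Of these 4 were called higher (3.54%, beside 11.6% of all genes tested) and 14 lower (12.4%, beside 9.48%), and their median log2 fold change was −0.16. The exosome, which trims rRNA ends, had 1 of 12 higher and 3 lower: *Exosc5*, a core subunit, was at 24.3, 31.3 and 25.7 FPKM in controls and at 55.0, 46.5 and 56.1 FPKM in med23Δli livers (log2 fold change 0.96, adjusted p = 0.00692 by limma), whereas the nuclear exonuclease *Exosc10* was at 21.3, 23.6 and 15.9 FPKM against 11.1, 10.6 and 9.93 FPKM (−0.92, adjusted p = 0.011). *Exosc3* (−0.60) and the exosome helicase *Skiv2l2* (−0.49) were the others called lower. Of 40 other large subunit genes 6 were lower and none higher (11 and 3 at an unadjusted p under 0.05 in limma), led by the export GTPase *Lsg1* (−0.70), *Mrto4* (−0.67) and *Pdcd11* (−0.67). Of 41 other small subunit genes 3 were lower, *Rrp36* (−0.90), the rRNA methyltransferase *Emg1* (−0.62) and *Utp11l* (−0.53), and *Pno1* was higher (0.55). Of 11 other RNA polymerase I and rDNA transcription genes, the subunits *Twistnb* (0.49) and *Znrd1* (−0.52) were called, in opposite directions. Of 9 snoRNP assembly genes *Naf1*, an assembly factor of box H/ACA particles, was higher (0.60) and *Ruvbl1*, a helicase of the box C/D assembly complex, lower (−0.60). These counts moved with single libraries: without 1 library at a time they were 1 to 7 higher and 0 to 22 lower, with the highest number of both without control 3.

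Of the 13 genes of the MYC, MAX and MLX network besides *Myc*, 10 were tested, and 3 were called, all higher (30%, beside 11.6% of all genes tested). *Mnt*, a MAX partner that represses E-box genes, was at 2.57, 1.54 and 3.04 FPKM in controls and at 9.11, 9.09 and 6.38 FPKM in med23Δli livers, with no overlap (log2 fold change 1.77 ± 0.26 SE, adjusted p = 0.00621 by limma). Its ratio to *Myc* changed by −0.28 on the log2 scale and this change did not pass the test (adjusted p = 0.394). *Max*, the shared dimer partner, was at 16.8, 21.7 and 22.0 FPKM against 33.1, 32.8 and 28.0 FPKM (0.64, adjusted p = 0.0258), and *Mxd4*, another repressive partner of MAX, rose by 0.63 (adjusted p = 0.0359). *Mycn*, *Mycl* and *Mxd3* were under the filter. Among 20 *Myc* targets outside ribosome production 2 were higher (10%, beside 11.6% of all genes tested) and 1 lower (5%, beside 9.48%), shares that do not set the list apart. The mitochondrial chaperonin genes *Hspe1* (367, 303 and 275 FPKM against 669, 627 and 654 FPKM; 1.05, adjusted p = 0.00514) and *Hspd1* (0.80, adjusted p = 0.0209) rose, and *Impdh2*, of guanine nucleotide synthesis, fell (−0.57, adjusted p = 0.0228). The other 17 were not called. Over the 20, 11 had a log2 fold change above 0 and 9 below, with a median of 0.04. Of the 22 called genes named from all these lists and from that of genes MYC represses, *Mnt*, *Hspe1*, *Exosc5* and *Cdkn1b* stayed called under the 15 alternatives other than the 2-fold criterion, which *Exosc5* did not pass. The other 18 lost the call under at least 1 of the 15, *Exosc10* under 1 of them, without med23Δli liver 3 (adjusted p = 0.0517).

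**Figure D4:**
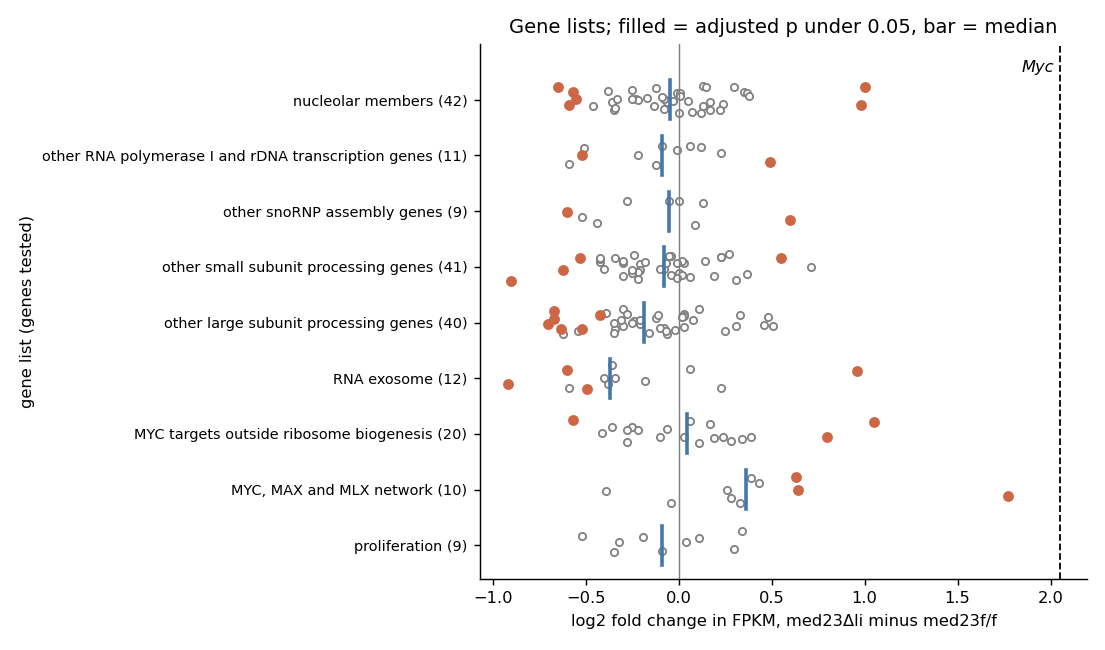
Log2 fold change in FPKM (x axis, med23Δli minus med23f/f) of the genes of each list (y axis, number tested in parentheses); 1 point is a gene, filled points passed an adjusted p of 0.05, blue bars are list medians and the dashed line is Myc at 2.05. The medians of the ribosome lists lie between −0.37 and −0.04, and Mnt at 1.77 is the gene nearest to Myc.

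Of the lists of cell type markers, the endothelial list moved with the groups. Over all genes tested, 11.6% were called higher and 9.48% lower. All 6 endothelial markers were lower in med23Δli livers (*Pecam1*, *Kdr*, *Stab2*, *Cdh5*, *Clec4g* and *Lyve1*, log2 fold changes −0.75 to −1.27), and their summed level was 81.4 to 119 FPKM in controls and 43.7 to 46.9 FPKM in med23Δli livers. Of the other lists, 0 of 8 hepatocyte markers, 1 of 4 leukocyte markers (*Coro1a*, lower), 0 of 8 macrophage and monocyte, 0 of 4 neutrophil, 1 of 7 stellate cell and fibroblast (*Des*, lower), 0 of 5 biliary and 1 of 5 erythroid markers (*Hba-a1*, higher, which has a near-identical copy) were called by limma, and all 7 lymphocyte markers were under the filter. In the lists with no call, an unadjusted p under 0.05 was reached by 1 hepatocyte marker as higher and 3 as lower, by 1 macrophage marker in each direction, by 2 neutrophil markers as lower and by no biliary marker. The hepatocyte marker *Alb* was at a mean of 19700 FPKM in controls and 15400 FPKM in med23Δli livers. The part of cell makeup in the changes of *Myc*, *Ncl*, *Npm1* and the 4 lower nucleolar genes was not tested.

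In the GENCODE annotation 7 of the 43 genes, *Ncl*, *Nop56*, *Nop58*, *Wdr43*, *Dkc1*, *Gnl3* and *Tsr1*, have snoRNA genes on their own strand within their bounds, 3 in *Ncl*, 5 in *Nop56* and 4 in *Nop58*. Exons of 17 of the 43 overlap exons of another gene, by most in *Tsr1*, whose exons share 1240 bases with *Srr* on the other strand, and in *Noc2l* (598 bases with *Samd11*). The library kit is not stated to keep the strand, so reads from those stretches cannot be told apart. *Myc*, *Ncl*, *Npm1*, *Nop58* and *Noc4l* have no such overlap, *Nop56* has 5 bases with *Idh3b* and *Rrp1b* 54 bases with *Hsf2bp*.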

How the data were processed

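RNA-seq of whole liver from 3 med23f/f and 3 med23Δli mice was used, 1 library per mouse. The authors prepared libraries with the TruSeq v2 kit, trimmed adapters, aligned paired reads to mm10 with TopHat and ran Cuffdiff; versions, annotation and options are not given in the sources used here. The deposited table holds FPKM per library, and the authors' own group values, fold changes and p-values, which were not used.

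Values were taken as log2(FPKM + 0.1), and the 11956 genes whose mean reached 0.5 FPKM were tested by limma 3.58.1 under R 4.3.3 (lmFit, eBayes with a trend; Benjamini-Hochberg). The same fit was made relative to *Myc*. The fits were tested on simulated data. The 43 genes and the lists were chosen with earlier results of these data known. All 43 were named, and of each other list the 3 largest changes in each direction among called genes. Defining markers and *Med23* were added. Results were recomputed with a pseudocount of 1 or 0.01, with the filter removed or raised to 1 FPKM, after median centring or quantile normalization, with eBayes made robust or without its trend, with a replicate block, with a 2-fold criterion and with each library left out. Gene positions and snoRNA genes come from GENCODE (GRCm38, the mm10 assembly), promoters from RefSeq. Python 3.11.15 with pandas 2.3.3 and scipy 1.17.1 was used for the rest.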

Additional observations from a re-analysis of the deposited data

How the results depend on the processing

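The log2 fold change of *Myc* was 1.86 to 2.19 and stayed called under all alternatives run, and all 42 nucleolar genes stayed below *Myc* in the fit relative to it. In the main fit 96.7% of all genes fell against *Myc*, so this count says little about the 42 in particular. The median log2 fold change of the 42 lay between −0.09 and 0.00. The number of members called higher was 3 (*Myc* included), 4 without control 3 and 2 with the 2-fold criterion. The number called lower, 4, became 2 with no filter and 0 with the 2-fold criterion, and without 1 library at a time it ran from 0 to 4. In the 5 lists of other ribosome genes the 4 higher calls became 0 and the 14 lower calls 0 with the 2-fold criterion, the lower calls became 9 with eBayes without a trend, and without 1 library at a time they ran from 1 to 7 higher and 0 to 22 lower. Over all genes the 1384 higher and 1133 lower calls became 532 and 412 with the 2-fold criterion, and 397 to 1723 and 343 to 1420 without 1 library at a time, the highest without control 3. *Fbl* became lower with quantile normalization (adjusted p = 0.0303 by limma). A 2-fold criterion removes calls by its construction; for the other changes the cause was not tested.

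Libraries with the same number did not deviate together (r = −0.124 to −0.0222 across genes, and 0 of 6 libraries correlated best with their own number), so the numbers were not taken as pairs. With the replicate block, *Myc* had a log2 fold change of 2.05, 3 members were called higher and 0 lower, 42 nucleolar genes differed from *Myc* and their median was −0.04. Under the same replicate block 1 of the other ribosome genes was higher and 3 were lower, and over all genes 809 were higher and 614 lower. The depth of each library is unknown, so whether deeper libraries would move the 36 genes not called cannot be said; their upper confidence limits were all under 1 on the log2 scale.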

Other observations

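Of 12 proliferation genes 9 were tested and none was called by limma at an adjusted p under 0.05 (1, *Mcm2*, at an unadjusted p under 0.05). Over all genes tested 11.6% were called higher and 9.48% lower. The log2 fold changes ran from −0.52 for *Mcm2*, a subunit of the replicative helicase, to 0.34 for *Cdk1*, the kinase of mitotic entry. *Mki67* was at 0.221, 0.0403 and 0.0803 FPKM in controls and at 0.406, 0.106 and 0.348 FPKM in med23Δli livers. *Ccnb1* was at 0.175, 0.171 and 0.447 FPKM against 0.917, 0.0829 and 0.846 FPKM, and *Top2a* at 0.588, 0.380 and 0.217 FPKM against 0.675, 0.257 and 0.385 FPKM. These 3 genes were under the filter and not tested, and their groups overlapped. *Pcna*, the sliding clamp of DNA replication, was at a mean of 55.2 FPKM in controls and 42.9 FPKM in med23Δli livers (adjusted p = 0.139).

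Of 5 genes that MYC is known to repress, 4 were tested and 1 was called, as higher (25%, beside 11.6% of all genes tested). *Cdkn1b*, which encodes the cyclin-dependent kinase inhibitor p27, was at 6.59, 6.91 and 7.18 FPKM in controls and at 15.1, 14.8 and 14.5 FPKM in med23Δli livers (log2 fold change 1.09, adjusted p = 0.00224 by limma). The groups did not overlap, and the livers of a group lay close together. *Cdkn1a*, which encodes p21, had a log2 fold change of −0.09, and *Gadd45a* (0.73, adjusted p = 0.0789) and *Ndrg1* (0.88, adjusted p = 0.244) did not pass the test.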
